A study of Nothobranchius furzeri with 12 samples.

Results

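A set of 89 genes was higher in the tail fin of strain GRZ-BELL of the turquoise killifish, Nothobranchius furzeri, than in that of strain MZCS002, in fish of every group sequenced. The fish is a short-lived African annual species. RNA was sequenced from 12 tail fins in 4 groups of 3: yellow tails of GRZ-BELL, females of GRZ-BELL, red tails of MZCS002 and females of MZCS002. Yellow tails therefore carried both the GRZ-BELL strain and the yellow colour, and red tails both the MZCS002 strain and the red colour. Each sample was the pigmented region of the fin or, from females, the corresponding region, and reverse transcription used an oligo-dT primer. The labels give no age, no treatment and no sex for the fish with coloured tails. The labels also hold a number of unstated meaning that splits the fish by strain, and anything it marks cannot be told apart from strain. The design text states biological replicates, but not whether fish shared a tank or a brood.

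The genes were chosen from the values themselves. Of 20788 entries in the deposited table, 15170 had a mean of at least 10 normalized reads over the 12 libraries. A normalized read is a read count divided by the authors' size factor for its library. A gene was taken when its mean of log2(value + 1) was at least 1.5 higher in yellow than in red tails and at least 1.5 higher in GRZ-BELL than in MZCS002 females. Its lowest GRZ-BELL library also had to lie above its highest MZCS002 library, and coloured tails and females had to differ by less than 1 within each strain. Both strain differences reached 1.5 in 215 genes, 131 of them without overlap between strains. Of these, 89 met the limit within strains, 0.587% of the 15170. The strain differences below are therefore descriptions of what was selected and carry no test. The same rule turned round gave 74 genes higher throughout MZCS002. The balance of the 2 counts moved with the settings. It was 101 and 56 with libraries scaled to equal totals, but 35 and 41 with a minimum mean of 50. Without GRZ-BELL female 3 it was 85 and 100.

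A tail fin holds epidermis, bony rays, dermal connective tissue, vessels, pigment cells and the nerve fibres that supply them. A terminal complement protein, synaptic proteins, transporters and a signalling adaptor are among the products of the genes described here. These belong to no single known pathway and are described by what their products do, starting with those known best from neurons, and then as a set.

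The libraries held 5495553 to 17053983 recovered reads, the lowest being MZCS002 female 2, in which 3 reads equalled 9.43 normalized reads. In the other 11 libraries 3 reads equalled 2.04 to 4.12. Of 10 epidermis and fin markers, 5 were matched by symbol. Their summed level was 758775 to 1460701 normalized reads in GRZ-BELL and 609831 to 1688976 in MZCS002. Most of the sum was krt5, and epcam and col1a1a were also abundant in every library. The fin marker and2 was lower and uneven. It averaged 75.6 in yellow tails, 382 in GRZ-BELL females, 919 in red tails and 167 in MZCS002 females. The means of and1 were 1160, 2428, 4824 and 1118 in the same order. The sum of 2 of 4 blood markers was 55.8 to 1039 in GRZ-BELL and 31.4 to 146 in MZCS002, with the highest values in yellow tails, and their part in the results was not tested. In bulk tissue, fewer cells of a type and less RNA per cell cannot be told apart.

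**Figure D1:**
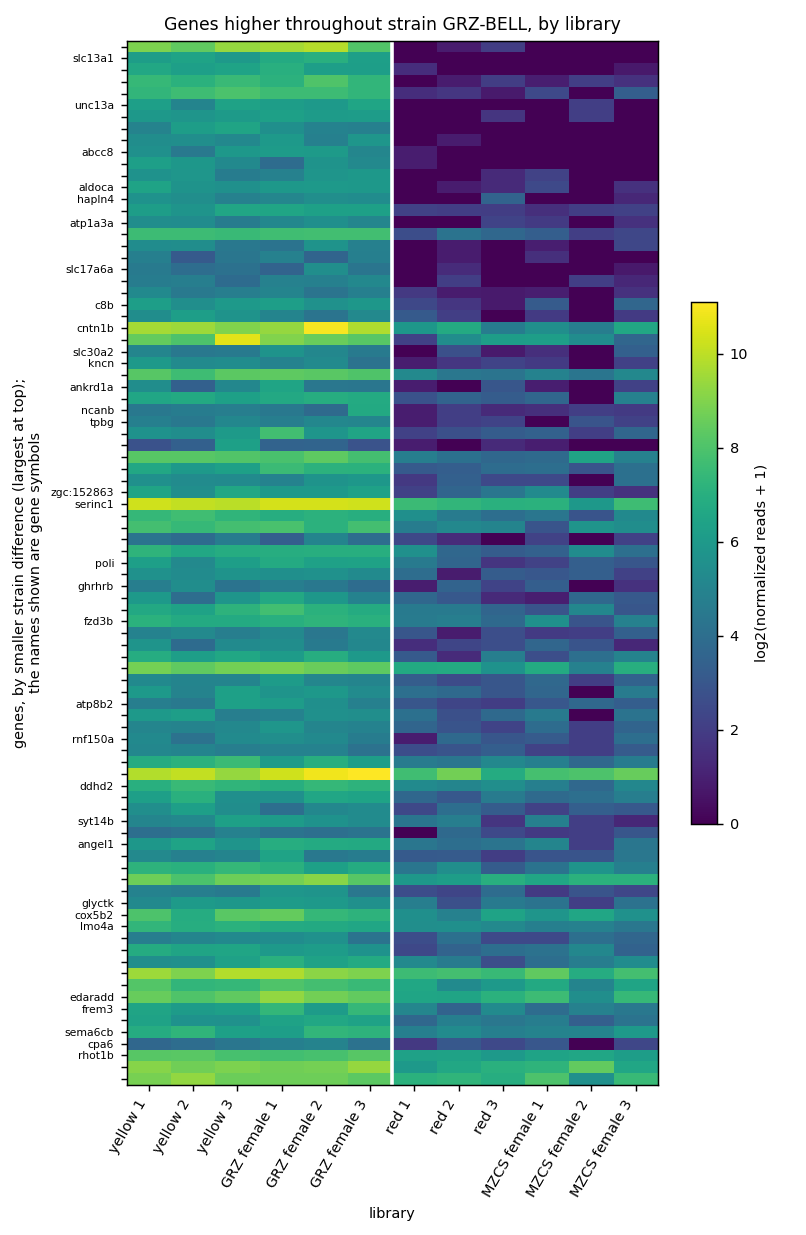
Levels of the 89 genes (rows, sorted by the smaller of their 2 strain differences, largest at the top) in the 12 libraries (columns), coloured by log2(normalized reads + 1). The white line parts 6 GRZ-BELL libraries (left) from 6 MZCS002 libraries (right), and the dark cells at the top right are genes with few or no reads in MZCS002.

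Of the 89 genes, 52 were matched to a gene of the RefSeq table and 32 of those had a symbol, while 20 had only a locus number. The 32 were placed by role after their values were seen. They comprised 9 genes known best from neurons, 6 of membrane transport and lipids, 7 of signalling, transcription and matrix, 3 of mitochondria and metabolism, and 7 others. The neuron-associated genes had median differences of 3.77 between yellow and red tails and 4.20 between females. In 7 of the 9 the smaller difference was above 3, as it was in 14 of all 32 genes with a symbol and 35 of the 89. These counts describe a grouping made by hand, on the differences that the rule used, and are no test. The share of neuron-associated genes among all tested genes was not counted. Over the whole set the medians were 2.82 and 2.97, over all 15170 genes 0.01 and 0.02.

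Transcripts of unc13a, whose product prepares synaptic vesicles for release, were read in every GRZ-BELL fin and almost not at all in MZCS002. Yellow tails had 75.3, 31.3 and 82.5 normalized reads and GRZ-BELL females 71.7, 63.3 and 92.2. Red tails had no read, and MZCS002 females had 0, 3.14 and 0, which is 1 read in all 6 libraries. The ratio of summed reads, scaled by the size factors, was 455 (95% exact counting interval 81.3 to 18030). The intervals given here pool the reads of the 6 libraries of a strain. They cover counting error only and leave out the spread between fish. No molecular identifiers are stated, and reads that share a molecule through PCR would make the intervals too narrow. They describe genes that the rule selected and are no test.

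The neighbouring genes hapln4 and ncanb were at lower levels, and both had more MZCS002 reads than unc13a, 16 for hapln4 and 14 for ncanb. Both encode components of the hyaluronan matrix around neurons, a link protein and the proteoglycan neurocan. For hapln4, yellow tails had 50.2, 44.3 and 28.9 and GRZ-BELL females 32.9, 44.1 and 41.4 normalized reads. Its red tails had 0, 0 and 10.6 and its MZCS002 females 0, 0 and 1.36, so that red tail 3 carried most of the MZCS002 reads. For ncanb, yellow tails had 21.1, 24.3 and 26.1 and GRZ-BELL females 21.1, 13.3 and 107, with female 3 far above the other 5 GRZ-BELL libraries. The MZCS002 values of ncanb were 0.86, 3.21 and 1.51 in red tails and 1.80, 3.14 and 2.72 in females. No protein-coding gene lies between this pair in assembly NfurGRZ-RIMD1, and 45 lie between ncanb and unc13a. No other pair of the 52 matched genes was adjacent, the next closest being frem3 and rnf150a with 6 protein-coding genes between them.

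The gene cntn1b, which encodes the neural cell adhesion protein contactin, was the most abundant of the neuron-associated genes. Yellow tails had 773, 710 and 510 normalized reads and GRZ-BELL females 657, 2047 and 883. Red tails had 58.5, 111 and 24.1 and MZCS002 females 44.0, 25.1 and 99.9. The lowest GRZ-BELL library was thus several times the highest MZCS002 library, and the ratio of summed reads was 14.8. The difference was 3.57 between the tails and 4.43 between the females (SE 0.59 each, from the fit over all genes).

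For aldoca, which encodes the glycolytic enzyme aldolase C of brain, yellow tails averaged 61.8 ± 22.2 and GRZ-BELL females 60.3 ± 0.46 normalized reads, against 0.77 ± 0.75 in red tails and 2.18 ± 2.25 in MZCS002 females (SD, n = 3 each). The sodium pump subunit gene atp1a3a, active mainly in neurons, was at 36.5 ± 10.2 in yellow tails and 37.3 ± 6.69 in GRZ-BELL females, against 1.26 ± 2.18 in red tails and 1.58 ± 1.41 in MZCS002 females. The vesicular glutamate transporter gene slc17a6a had 138 reads in the 6 GRZ-BELL libraries and 3 in the 6 MZCS002 libraries, a ratio of 49.2 (interval 16.5 to 241). In each of these 3 genes the mean log2 levels of yellow tails and GRZ-BELL females differed by less than 1, as the rule required. The MZCS002 libraries were at or near 0.

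The last genes of this group showed smaller differences. The synaptotagmin gene syt14b, of a family that acts in membrane traffic, had 32.1 to 79.7 normalized reads in GRZ-BELL and 1.36 to 27.9 in MZCS002. The semaphorin gene sema6cb, of a family that guides axons, had 74.0 to 157 in GRZ-BELL and 26.7 to 63.9 in MZCS002. For both genes the lowest GRZ-BELL value was less than 1.5 times the highest MZCS002 value.

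The list of general nerve and glia genes held none of the 89. Of its 11 matched genes only 4 (elavl4, neflb, mbpa and gap43) reached the minimum mean, so that only these were tested and could be members. Of the 4, 0 passed in either comparison by limma with a Benjamini-Hochberg adjusted p under 0.05. Over all tested genes limma called 7.43% between the tails and 1.74% between the females. With so few genes, 0 calls cannot decide whether the list differed between strains. The median difference of the 4 was 0.32 between the tails and -0.72 between the females. At an unadjusted p under 0.05 limma found 1 in each comparison, and edgeR and DESeq2 also called 0. The summed level of 3 nerve and glia markers was 246 to 765 normalized reads in GRZ-BELL and 211 to 484 in MZCS002, so that the strains overlapped. Most of the sum was mbpa, which averaged 264 in yellow tails, 539 in GRZ-BELL females, 254 in red tails and 262 in MZCS002 females. The means of elavl4 were 34.6, 35.5, 14.5 and 56.8 in the same order. Whether nerve content has a part in the values of the 9 genes was not tested.

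**Figure D2:**
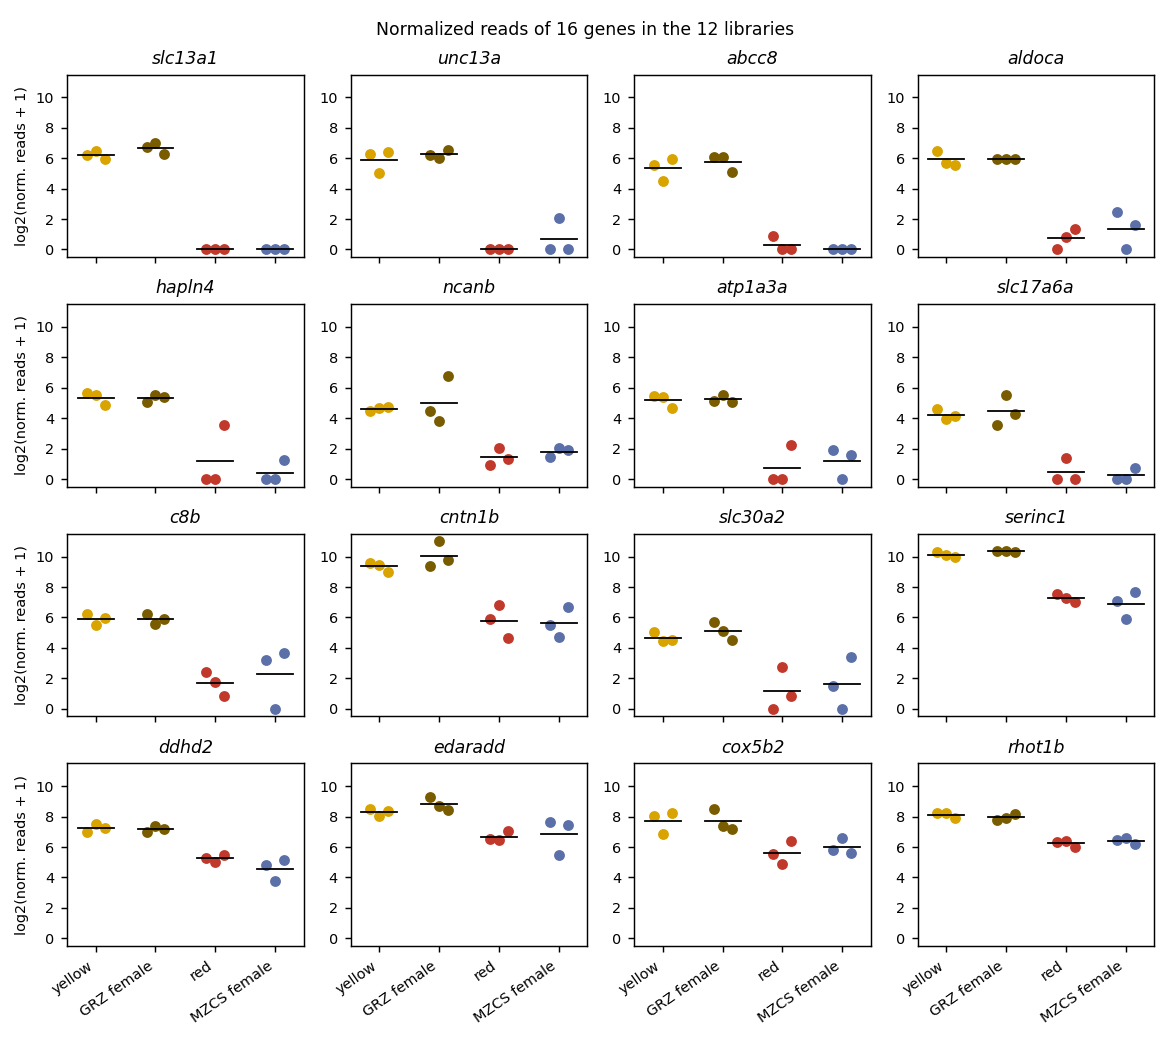
Normalized reads, as log2(value + 1), of 16 of the genes in yellow tails, GRZ-BELL females, red tails and MZCS002 females. Points are the 3 libraries of a group and bars their mean; in every panel all 6 GRZ-BELL points lie above all 6 MZCS002 points.

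Among genes of membrane transport, slc13a1 had no read in any MZCS002 library. It encodes a sodium-coupled sulfate transporter, known in mammals from kidney and gut. Yellow tails had 72.3, 86.8 and 61.8 normalized reads and GRZ-BELL females 108, 127 and 76.6, or 559 reads in all. Set against 3 reads over the 6 MZCS002 libraries together, the GRZ-BELL level was at least 199-fold higher. One other gene had no MZCS002 read, the unnamed entry XM_015940721, with 27.4 to 88.0 normalized reads in GRZ-BELL, at least 102-fold higher on the same floor.

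The gene abcc8, for the sulfonylurea receptor subunit of potassium channels that respond to ATP, had 46.2, 21.7 and 60.5 normalized reads in yellow tails and 68.1, 65.8 and 32.8 in GRZ-BELL females. Red tails had 0.86, 0 and 0 and MZCS002 females had none. This single MZCS002 read set the ratio at 314 (interval 56.0 to 12456). The zinc transporter gene slc30a2 was lower, at 20.8 to 51.7 in GRZ-BELL and 0 to 9.52 in MZCS002.

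The most abundant gene with a symbol was serinc1, of a membrane protein family linked to serine incorporation into lipids. Yellow tails had 1266, 1079 and 996 normalized reads and GRZ-BELL females 1324, 1347 and 1262. Red tails had 188, 157 and 130 and MZCS002 females 136, 59.7 and 202. The 6 GRZ-BELL values lay close together and the ratio of summed reads was 7.70. The differences were 2.82 in tails and 3.46 in females (SE 0.35 each). The lipase gene ddhd2 was at 126 to 185 in GRZ-BELL and 12.6 to 43.7 in MZCS002, a ratio of 4.43. The flippase gene atp8b2, whose product moves phospholipids across the membrane, was at 21.7 to 78.3 in GRZ-BELL and 3.02 to 12.6 in MZCS002.

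Signalling genes mostly showed smaller differences. The gene edaradd encodes the adaptor of the ectodysplasin receptor, which in fish takes part in scale and fin ray formation. It had 363, 262 and 337 normalized reads in yellow tails and 632, 423 and 345 in GRZ-BELL females, against 90.4, 87.5 and 135 in red tails, with 196, 44.0 and 171 in MZCS002 females. The Wnt receptor gene fzd3b averaged 118 ± 14.1 in yellow tails and 137 ± 12.1 in GRZ-BELL females, against 20.6 ± 6.84 in red tails and 27.2 ± 20.3 in MZCS002 females (SD, n = 3 each). For tpbg, a cell surface glycoprotein gene linked to Wnt signalling, the range was 20.8 to 34.4 in GRZ-BELL and 0 to 6.29 in MZCS002.

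The growth hormone-releasing hormone receptor gene ghrhrb had 14.1 to 42.5 normalized reads in GRZ-BELL and 0 to 10.4 in MZCS002. The matrix gene frem3, of the family that anchors epidermis to dermis, had 66.9 to 170 in GRZ-BELL and 10.4 to 39.2 in MZCS002. The transcriptional cofactor gene lmo4a was among the steadiest of the set, at 138 ± 19.8 in yellow tails and 103 ± 8.89 in GRZ-BELL females against 41.9 ± 4.36 in red tails and 25.2 ± 4.23 in MZCS002 females. By contrast ankrd1a, known as a stress response gene of muscle, spread from 9.55 to 88.1 in GRZ-BELL and from 0 to 6.79 in MZCS002. Of 4 muscle markers 3 were matched, and their sum was 2.61 to 12.5 in GRZ-BELL and 7.54 to 316 in MZCS002, so that the strains overlapped. The sum averaged 5.08 in yellow tails, 8.97 in GRZ-BELL females, 13.6 in red tails and 144 in MZCS002 females. The part of these markers in the values of ankrd1a was not tested. Of 7 tested genes of the muscle list, 1 rose in both comparisons and 0 fell, where limma called 3.58% and 0.923% of all tested genes higher. The median difference of the 7 was 0.15 between the tails and -0.83 between the females. The gene that rose was ryr1b, a calcium release channel gene, with differences of 4.37 ± 0.98 and 6.47 ± 0.98 (SE; limma adjusted p = 0.019 and 0.0043). Without yellow tail 1 or 3 or red tail 1 or 3 the first adjusted p was 0.051 to 0.069 in limma, and with only the females in the fit the second was 0.064. The gene ryr1b had 197 to 363 normalized reads in GRZ-BELL. Red tails had 18.1, 19.3 and 3.02 and MZCS002 females 0.90, 0 and 27.2. It met every condition of the rule but the limit within strains, so its p-values rest on the same values as those conditions.

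Genes of mitochondria and metabolism were few. The gene rhot1b encodes a protein that couples mitochondria to transport along microtubules. It had 302, 303 and 235 normalized reads in yellow tails and 216, 235 and 293 in GRZ-BELL females, against 80.9, 82.7 and 63.3 in red tails, with 86.3, 94.3 and 72.0 in MZCS002 females. The cytochrome c oxidase subunit gene cox5b2 had 117 to 356 in GRZ-BELL and 28.9 to 94.3 in MZCS002. It was the only one of 76 tested respiratory chain genes in the set, where 0.587% of all tested genes were. In that list limma called 1 gene higher and 5 lower in yellow than in red tails and 0 higher and 1 lower in GRZ-BELL than in MZCS002 females, with medians of -0.34 and -0.21. The 1 higher gene was cox5b2, which the rule selected on these values. The list also held 2 genes lower in GRZ-BELL without overlap between strains, where 1.83% of all tested genes were. Both are cytochrome c oxidase subunit genes, cox6a2 (differences of -3.68 between the tails and -3.11 between the females) and cox4i2 (-1.66 and -1.57). Over all tested genes limma called 7.43% between the tails and 1.74% between the females, in either direction. The glycerate kinase gene glyctk had 53.3 ± 14.5 in yellow tails and 58.2 ± 10.3 in GRZ-BELL females, against 17.8 ± 10.7 in red tails and 12.7 ± 8.29 in MZCS002 females.

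Among the other genes, c8b encodes a subunit of the terminal complement complex, which makes pores in microbial membranes. Yellow tails had 73.3, 43.4 and 61.8 normalized reads and GRZ-BELL females 72.8, 47.5 and 58.6, against 4.30, 2.41 and 0.75 in red tails, with 8.09, 0 and 11.6 in MZCS002 females. The other 3 of the 4 tested complement genes, c7a, c7b and cfd, were not in the set. The median difference over all 4 was 0.67 between the tails and -0.03 between the females. The translesion DNA polymerase gene poli had 36.5 to 108 in GRZ-BELL and 2.26 to 22.4 in MZCS002. The gene kncn, for kinocilin, known in mammals from sensory hair cells, had 17.2 to 61.2 in GRZ-BELL and 0 to 3.77 in MZCS002. The gene zgc:152863 had 44.3 to 97.6 in GRZ-BELL and 2.04 to 38.6 in MZCS002. Its lowest GRZ-BELL value was 1.15 times its highest MZCS002 value, and limma called it in neither comparison. The remaining 20 of 22 gene lists examined held no gene of the set. With 0.587% of all tested genes in the set, most lists of such sizes would hold none.

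The most extreme gene of the set has no name in the table used. Entry XM_015946284 had 485, 334 and 656 normalized reads in yellow tails and 785, 930 and 274 in GRZ-BELL females. Red tails had 0, 0.80 and 3.02, and MZCS002 females had no read. From 3479 reads against 5, the ratio was 744 (interval 318 to 2292). Next after it and slc13a1 came LOC107377062, at 73.5 to 128 in GRZ-BELL and 0 to 1.72 in MZCS002. LOC107382817 followed, at 135 to 262 in GRZ-BELL and 0 to 3.14 in MZCS002. The most abundant of all was entry XM_015970935, at 907, 1103 and 649 in yellow tails and 1267, 1852 and 2205 in GRZ-BELL females, compared with 205, 429 and 114 in red tails, while the MZCS002 females had 224, 255 and 363.

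**Figure D3:**
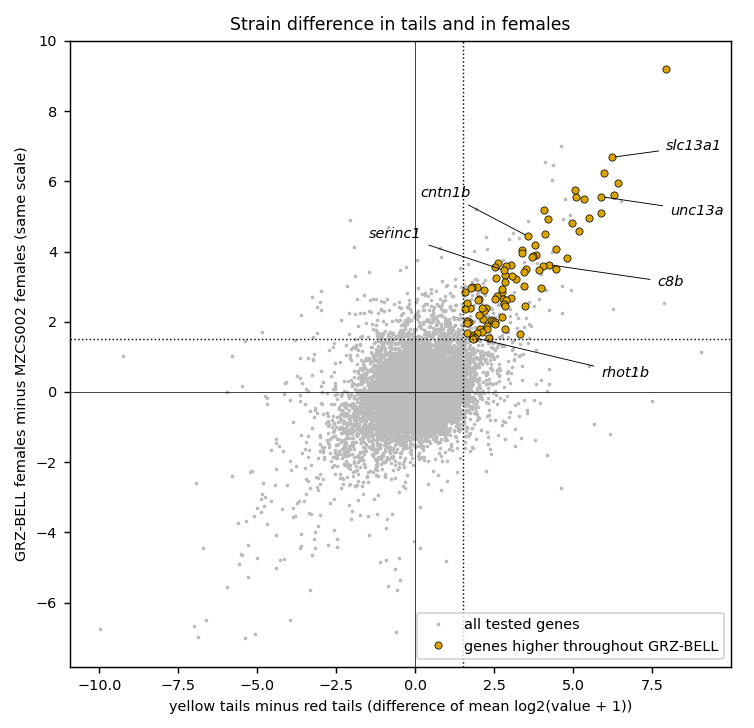
Difference of mean log2(value + 1) between yellow and red tails (x axis) and between GRZ-BELL and MZCS002 females (y axis) for all 15170 tested genes (grey) and the 89 genes of the set (yellow). Dotted lines mark the threshold of 1.5 on each axis; grey points beyond both lines failed one of the other conditions.

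Across the set, the difference ran from 1.56 to 7.94 between the tails and from 1.52 to 9.19 between the females. The smaller of both was at least 5 in 10 genes, 3 to 5 in 25, 2 to 3 in 28 and under 2 in 26. In 49 genes the females differed by more than the tails. The set summed to 0.0954% to 0.139% of the normalized reads of a GRZ-BELL library and 0.0115% to 0.0232% of those of an MZCS002 library. The median gene was at 55.6 to 72.8 normalized reads in the GRZ-BELL libraries and at 3.14 to 9.52 in the MZCS002 libraries.

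Few of the genes lacked reads altogether in MZCS002. A gene without reads need not be silent, since the genome build is not given and how well reads of each strain aligned was not tested. Besides the 2 with no read, 7 had 1 to 3 reads in the 6 libraries together and 20 had 4 to 30. No member could lack a read in a GRZ-BELL library, because the rule set each of these above the highest MZCS002 library. In MZCS002, 11 to 17 members lacked a read in a library other than female 2, and 29 in female 2, the shallowest. That library was the highest of the 6 in 14 genes.

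The distance between the strains also varied. The lowest GRZ-BELL library was more than 5 times the highest MZCS002 library in 17 of the genes with an MZCS002 read, and less than 1.5 times in 25. Closest was LOC107385793, at 15.3 in GRZ-BELL female 1 and 15.3 in red tail 2. Just inside the threshold of 1.5 stood rhot1b, LOC107392108 and LOC107372856, with smaller differences of 1.54, 1.54 and 1.52. Just outside it, with all other conditions met, stood the unnamed entries XM_015963141, XM_015960268 and XM_015964570, with smaller differences of 1.49, 1.49 and 1.48.

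Membership turned on single libraries for many of the genes, and 26 of the 89 met the rule with any of the 12 libraries left out. The gene unc13a no longer met it without MZCS002 female 1 or 3, and hapln4 without red tail 1 or 2 or MZCS002 female 3. Without MZCS002 female 2, aldoca, c8b and edaradd were lost, and without red tail 3 atp1a3a. The gene cntn1b was lost without GRZ-BELL female 1, as was cox5b2. For unc13a, hapln4, aldoca, c8b, atp1a3a and cntn1b the condition that failed was the limit on coloured tails against females within a strain. The strain differences of these genes still met the threshold. For edaradd and cox5b2 the difference between the females of the strains fell below the threshold. In contrast slc13a1, abcc8, ncanb, serinc1, fzd3b, ddhd2 and lmo4a were kept in all 12 cases.

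Some genes were high in a single fish. The gene LOC107377108 had 360, 255 and 1607 normalized reads in yellow tails and 514, 380 and 293 in GRZ-BELL females, against 3.44, 42.6 and 70.9 in red tails, with 74.6, 40.9 and 11.6 in MZCS002 females. Yellow tail 3 was also far above the rest for entry XM_015941504, at 79.7 against 6.02 to 10.8 in the other 5 GRZ-BELL libraries and 0 to 1.51 in MZCS002. The mean SD within groups, on the log2 scale, had a median of 0.63 over the set, 0.41 over all tested genes and 0.58 over tested genes with a mean below 100.

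Within strains, coloured tails and females differed little because the rule required it. The median difference was -0.10 between yellow tails and GRZ-BELL females and -0.05 between red tails and MZCS002 females. It was within 0.5 in 67 genes in GRZ-BELL and in 58 in MZCS002. For XM_015970935, just within the limit, yellow tails were lower than GRZ-BELL females by a difference of -0.998. For atp8b2 the red tails were lower than the MZCS002 females by a difference of -0.93, and for syt14b they were higher by 0.87.

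**Figure D4:**
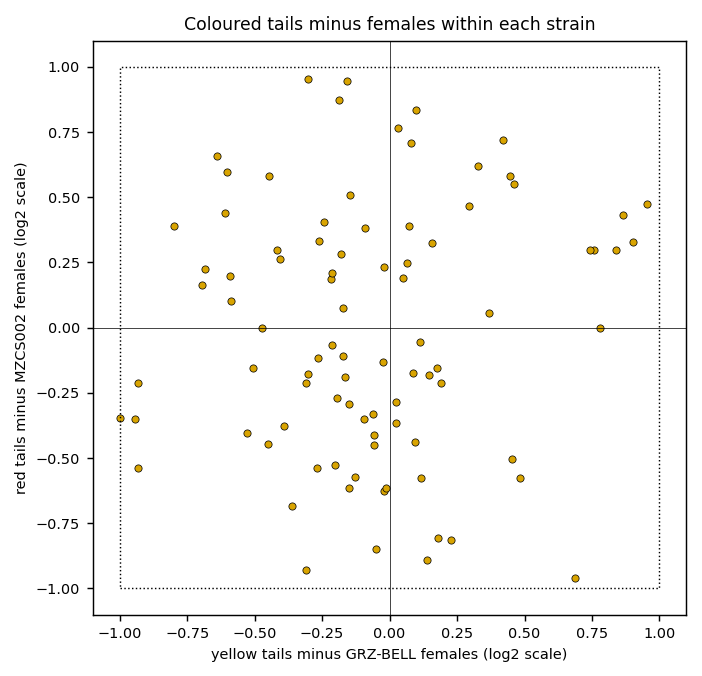
Coloured tails minus females within GRZ-BELL (x axis) and within MZCS002 (y axis), as differences of mean log2(value + 1), for the 89 genes. The dotted square is the limit of 1 set by the rule, and the points fill it around medians of -0.10 and -0.05.

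The set consisted mostly of genes of low level. Its median mean over 12 libraries was 35.5 normalized reads, against 53.3 for the 74 genes higher throughout MZCS002 and 212 for all tested genes, and 71 of the 89 had a mean below 100. This mean includes the 6 MZCS002 libraries, which the rule sets below those of GRZ-BELL. In the GRZ-BELL libraries alone the median gene was at 55.6 to 72.8. A match in the RefSeq table was found for 58.4% of the set, 51.4% of the 74 and 72.3% of all tested genes. Among genes with a mean below 100 the share was 57.7% in the set and 65.0% over all tested genes. The matched genes lay on 17 of the 19 chromosomes of that assembly, with at most 7 on one. These shares are descriptions and were not tested.

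The lack of overlap between strains that the rule demanded was found in 1.88% of all tested genes with GRZ-BELL higher and in 1.83% with MZCS002 higher. In the fit over all genes, limma called 71 of the 89 higher in yellow than in red tails, where 3.58% of tested genes were called higher, and 54 higher in GRZ-BELL than in MZCS002 females, where 0.923% were. It called 51 higher in both comparisons, where 0.541% of tested genes were. Since the rule used these contrasts, the counts say nothing further about the genes. In either direction limma called 7.43% of all tested genes between the tails and 1.74% between the females. These were 543 higher and 584 lower (3.85%) in yellow than in red tails, and 140 higher and 124 lower (0.817%) in GRZ-BELL than in MZCS002 females. With libraries scaled to equal totals the splits were 364 and 668, and 179 and 85. With that scaling the median gene lay at -0.09 between the tails and 0.23 between the females, and 79 of the 89 met the rule.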

How the data were processed

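Tail fin RNA of 12 fish was sequenced, and samples were grouped by their titles. The authors deposited a signal per transcript entry: each read count over its library's size factor. The submitters' processing notes name Trimmomatic, STAR, featureCounts and DESeq2; their versions, the genome build, strandedness and filters are not given there. Values were whole multiples of each library's smallest value, so whole reads were recovered (100% of nonzero values within 0.01 of a read). Names came from the RefSeq table of assembly NfurGRZ-RIMD1, which matched 14145 entries (68.0%) by accession, and no coordinates are given because the files name no build. No sequences are shown. Reads of near-identical gene copies could be split between entries.

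The genes of the set, the gene lists and the tests were chosen with earlier results of these data known. The fit was limma 3.58.1 (R 4.3.3, empirical Bayes with trend) of log2(value + 1), with 15170 entries, all 12 libraries, 4 groups and no covariate. Calls used a Benjamini-Hochberg adjusted p under 0.05. Such a fold understates the change of low genes. Genes were named by fixed rules. Among members with a symbol these took the 15 with the largest smaller strain difference and the 10 with the highest mean. Added to them were those in a list, those without an MZCS002 read, adjacent pairs and those nearest the threshold. Other genes given were picked after their values were seen. Exact intervals are Clopper-Pearson at 95%, and the floor for 0 reads is 3 reads over the 6 libraries of the strain. The fit was tested on simulated data. edgeR 4.0.16 and DESeq2 1.42.0 on recovered reads, other pseudocounts, filters and scalings, a replicate block and each library left out were tried.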

Additional observations from a re-analysis of the deposited data

How the results depend on the processing

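The number of genes meeting the rule was 89, of which 26 met it with each of the 12 libraries left out in turn; these counts ran from 80 to 104. It was 35 with a minimum mean of 50, all of them in the 89. A pseudocount of 8 gave 84 genes, 64 shared with the 89. Of 27 genes named by rule, 9 met it in all 12 settings: slc13a1, abcc8, ankrd1a, ncanb, tpbg, serinc1, fzd3b, ddhd2 and lmo4a. Most often lost were sema6cb and LOC107392108 (4 settings each). No strain difference of these 27 turned round under the scalings. Under the pseudocounts and omissions none could, because the rule allowed no overlap between strains.

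Between the tails limma called 1127 genes, 341 to 2620 with a library left out: 341 and 580 without yellow tails 1 and 3, 390 and 388 without red tails 1 and 2, and 2620 without MZCS002 female 2. Between the females it called 264, 110 to 360 with a library left out: 110, 117 and 133 without GRZ-BELL females 1, 2 and 3. A minimum mean of 50 gave 145 there. Fits on the 2 groups compared gave 1767 and 74, and DESeq2 2350 and 808, while edgeR gave 1194 and 283. Replicate numbers are shared by the groups but name no shared origin, and deviations of same-numbered libraries correlated at 0.04 to 0.17 in the tails and -0.16 to -0.10 in the females. A replicate block gave 835 and 210 calls. Depth limits low genes most in MZCS002 female 2.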

Other observations

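Beyond the 89 genes, 42 met every condition of the rule but the limit on the difference between coloured tails and females, which 36 exceeded in MZCS002 and 10 in GRZ-BELL. Those described here were picked after their values were seen, and no test is given for them. Among them, gpx4a, of the glutathione peroxidases that remove lipid peroxides, had 209, 228 and 286 normalized reads in yellow tails and 281, 282 and 228 in GRZ-BELL females, compared with 108, 151 and 35.4 in red tails, while the MZCS002 females had 74.6, 9.43 and 44.2. The sphingosine phosphate lyase gene sgpl1 had 449 to 791 in GRZ-BELL and 49.9 to 242 in MZCS002. The gene LOC107373064 had 87.7 to 142 normalized reads in the 6 GRZ-BELL libraries. In MZCS002 it had 82.2 in red tail 3 and no read in the other 5 libraries.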
